A study of Mus musculus with 9 samples.

Results

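The aminoacyl-tRNA synthetases are the enzymes that load each amino acid onto its tRNA. In cells sorted as retinal ganglion cells (RGCs) of mice, 36 genes of this family were followed by symbol, 20 of enzymes that act in the cytosol and 16 of enzymes that act in mitochondria, among the 15228 genes listed. All 36 were found and had reads in each of the 9 libraries. Libraries came from uninjured retinas (Ctrl), from retinas 3 d after optic nerve crush (ONC) that were given vehicle (PBS), and from retinas 3 d after ONC that were given TPEN, a membrane-permeable zinc chelator, with 3 libraries in each group. No injection is named for Ctrl. If Ctrl had none, crush and injection cannot be told apart in ONC/Ctrl and TPEN/Ctrl. The mice were wild type and had surgery at 6 to 8 weeks of age, and 3 μL of TPEN at 100 μM was injected into the eye right after the crush. Cells were sorted as CD90.2+ and negative for CD48, CD15 and CD57, and whether each library came from its own mice is not given in the sources used here, so p-values measure the spread between these libraries only.

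Cytosolic synthetases supply the ribosomes that read nuclear messages, and 8 of them sit together in the multisynthetase complex, held by the scaffold proteins AIMP1, AIMP2 and EEF1E1. Mitochondrial synthetases are also coded in the nucleus but load the tRNAs of the mitochondrial genome. A shortage of charged tRNA is sensed by GCN2, one of the kinases of the integrated stress response, and the factor ATF4, made during that response, is known to raise the genes of several cytosolic synthetases together with amino acid transporters and biosynthetic enzymes. Wars, for tryptophan, is in addition a known interferon-inducible gene.

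Levels were deposited as RPKM (reads scaled to exon length and to the total of the library). Library totals worked out from them ranged from 19946993 to 23109754 reads, and a count of 0 would allow a true level of up to 3 reads, with counting error alone taken into account. The synthetases together took 0.205% to 0.209% of the reads of listed genes in Ctrl, 0.230% to 0.236% in ONC and 0.221% to 0.224% in TPEN, and the groups did not overlap. The RGC markers were spread over the range of levels. Among 15228 genes, the neurofilament genes Nefl and Nefm ranked 153 and 847, Sncg 2289 and Thy1 (CD90) 6283, while Rbpms, Slc17a6 and Pou4f1, which define RGCs in the retina, ranked 13805, 14020 and 14252. The rod gene Gnat1 ranked 2. In such bulk samples fewer cells of a type and less RNA per cell cannot be told apart. The 9 of 11 microglia and macrophage markers that were listed and passed the filter were all higher in ONC/Ctrl, and the summed level of the 10 listed was 8.78 to 10.1 RPKM in Ctrl, 108 to 112 in ONC and 54.5 to 56.4 in TPEN. The 8 rod markers summed to 19061 to 19877 RPKM in Ctrl, 16764 to 16982 in ONC and 17980 to 18086 in TPEN. The 9 RGC markers listed, of which Nefl was by far the highest, summed to 333 to 344, 349 to 370 and 269 to 281 RPKM. Of the 6 RGC markers tested, 2 were called higher and 0 lower in ONC/Ctrl (11.7% and 6.97% of all genes). In TPEN/ONC, 1 was called higher and 3 lower (3.24% and 4.14% of all genes). The part of these shifts in the synthetase results was not tested.

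The cytosolic genes were expressed more highly than the mitochondrial ones. Over the 9 libraries, mean levels of the 20 cytosolic genes ran from 3.13 RPKM (Vars, for valine) to 84.9 RPKM (Nars, for asparagine), with a median of 13.8. Those of the 16 mitochondrial genes ran from 0.562 RPKM (Nars2, for asparagine) to 9.69 RPKM (Hars2, for histidine), with a median of 2.32. The median of the 13566 genes that passed the filter (mean of 0.5 RPKM or more) was 5.08, and 19 cytosolic but only 5 mitochondrial genes were above 5 RPKM. Fewer reads lay behind the mitochondrial values, 68 to 1211 per gene and library against 295 to 7114 for the cytosolic ones. The median coefficient of variation within groups was 11.3% for the mitochondrial and 4.88% for the cytosolic genes.

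From the highest down, Nars was followed by Sars (serine, 49.1 RPKM), Tars (threonine, 46.2), Aars (alanine, 29.0), Gars (glycine, 27.9) and Farsa (the alpha subunit of the phenylalanine enzyme, 26.2). Hars was at 19.8 RPKM, Kars (lysine) at 15.8, Eprs (the joint enzyme for glutamate and proline) at 15.1 and Lars (leucine) at 14.9. Rars (arginine) was at 12.7, Wars at 12.1, Qars (glutamine) at 11.9 and Mars (methionine) at 11.5. Dars (aspartate) was at 8.96, Cars (cysteine) at 8.91, Iars (isoleucine) at 8.30, Farsb (the beta subunit for phenylalanine) at 6.19, Yars (tyrosine) at 5.69 and Vars last. In 8 of the 19 steps of this order, the lowest library of the gene was above the highest library of its lower neighbour. The neighbours Sars and Tars, Aars and Gars, and Dars and Cars were among those that did not separate in this way.

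Among the mitochondrial genes, Hars2 was followed by Tars2 (7.22 RPKM), Rars2 (7.13), Aars2 (6.31) and Iars2 (5.51). A middle group held Sars2 (2.86), Fars2 (2.70), Vars2 (2.62) and Lars2 (2.03). Pars2 was at 1.53, Mars2 at 1.50, Wars2 at 1.37, Ears2 at 1.36, Yars2 at 1.18, Cars2 at 0.682 and Nars2 last. Only 3 of these 15 steps separated in this way.

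**Figure D1:**
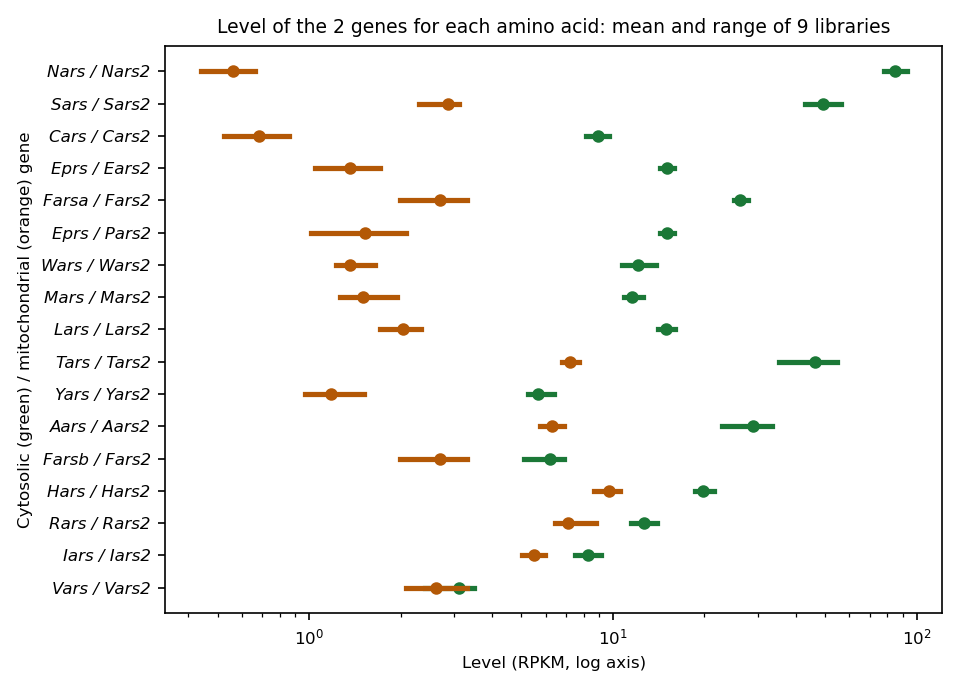
Mean (point) and range (line) over the 9 libraries of the RPKM of the cytosolic gene (green) and the mitochondrial gene (orange) for each of 17 pairs that serve the same amino acid, on a log axis, sorted by the ratio. Only Vars and Vars2, at the bottom, overlap, whereas Nars and Nars2, at the top, are 153-fold apart by the median ratio.

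Of 17 pairs of a cytosolic and a mitochondrial gene for the same amino acid, 16 had the cytosolic gene higher in every library. The median ratio was lowest for Vars over Vars2 (1.195, between 0.888 and 1.60) and highest for Nars over Nars2 (153, between 127 and 198). Nars was the highest cytosolic gene and Nars2 the lowest mitochondrial one. The ratio of Tars to Tars2 was 4.89 ± 0.435 in Ctrl, 7.38 ± 0.220 in ONC and 6.96 ± 0.431 in TPEN (mean ± SD, n = 3), and that of Aars to Aars2 was 3.66 ± 0.0612, 5.30 ± 0.261 and 4.90 ± 0.421. RPKM here divides by the length of all exons of a gene merged, which is 18102 bases for Eprs against 4906 for its principal transcript in GENCODE M21. Scaled to the principal transcript instead, Nars (81.4) and Sars (70.7) still led, but Farsa (65.2) and Eprs (55.6) came next and Tars stood at 30.4. The ratios of the pairs moved too. All 17 stayed above 1, but Iars over Iars2 (1.11) was then the lowest, Nars over Nars2 fell to 78.5 and Tars over Tars2 to 1.46, so both the order of genes and the size of the ratios depend on the length used.

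After the crush, 5 of the 20 cytosolic genes rose and 0 fell, with Tars and Aars well ahead of Gars, Sars and Nars. Genes were called at an adjusted p under 0.05 with limma on log2(RPKM + 0.1), over all 13566 genes tested. In ONC/Ctrl, 11.7% of all genes were called higher and 6.97% lower beside these 5 and 0 of the 20. The fold change was positive for 17 of the 20, beside 7262 of the 13566 genes tested. The median log2 fold change of the 20 was 0.14, where that of all genes tested was 0.02. Every ONC library was above every Ctrl library for 11 of the 20 and below for 0, while 20.7% of all genes separated upward and 15.8% downward. No synthetase reached a 1.5-fold change in this comparison, while 5.34% of all genes were both called and changed at least 1.5-fold, in either direction. Tars came closest at 1.48-fold, and it passed 1.5-fold without Ctrl replicate 2 (log2 fold change 0.59) or without ONC replicate 2 (0.60). Tested against a 1.2-fold change (limma treat) in place of no change, Tars and Aars stayed called and Gars, Sars and Nars did not.

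Tars, on chromosome 15 (11383663 to 11399658, GRCm38), codes for the cytosolic threonine enzyme. Its level was 35.4, 36.5 and 35.1 RPKM in Ctrl, 53.4, 50.9 and 54.6 in ONC, and 47.6, 52.8 and 49.2 in TPEN. All ONC and TPEN libraries lay above all Ctrl libraries, and ONC and TPEN overlapped. In ONC/Ctrl this was a change of 0.57 on the log2 scale (adjusted p = 1.5e-05 with limma, standard error 0.043).

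Aars, on chromosome 8 (111033144 to 111057664), codes for the cytosolic alanine enzyme. It stood at 22.9, 23.4 and 24.6 RPKM in Ctrl, 33.3, 33.1 and 31.6 in ONC, and 31.4, 29.8 and 30.8 in TPEN. The groups did not overlap, with TPEN between Ctrl and ONC. Between Ctrl and ONC it changed by 0.47 on the log2 scale (adjusted p = 3.1e-05 with limma, standard error 0.039). Aars shares 1326 of its 9282 exon bases with Exosc6 on the same strand, so reads from that part could be counted for either gene. Exosc6, a subunit of the RNA exosome, was at 2.33 RPKM and had a log2 fold change of 0.17 (limma adjusted p = 0.591).

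Gars, on chromosome 6 (55038007 to 55079500), serves both the cytosol and mitochondria for glycine, as does Kars for lysine. Gars was at 27.6, 24.9 and 23.9 RPKM in Ctrl, 31.7, 30.2 and 31.0 in ONC, and 27.7, 27.4 and 26.4 in TPEN. The ONC libraries were above all 6 others, whereas Ctrl and TPEN overlapped. Its log2 fold change in ONC/Ctrl was 0.28 (adjusted p = 0.0041 with limma, standard error 0.052).

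Sars, on chromosome 3 (108424865 to 108445209), codes for the cytosolic serine enzyme and was at 43.0, 46.3 and 44.6 RPKM in Ctrl, 53.6, 51.5 and 56.3 in ONC, and 45.5, 52.6 and 48.6 in TPEN. ONC separated from Ctrl, and the TPEN libraries were spread from within the Ctrl range into the ONC range. ONC exceeded Ctrl by 0.27 on the log2 scale (adjusted p = 0.0079 with limma, standard error 0.056).

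Nars, the most highly expressed member, had the smallest of the called changes. Its level was 78.1, 83.6 and 78.6 RPKM in Ctrl, 87.5, 87.8 and 92.6 in ONC, and 83.1, 86.8 and 86.0 in TPEN. Ctrl and ONC did not overlap, and neither did ONC and TPEN. Nars had a log2 fold change of 0.16 (adjusted p = 0.014 with limma, standard error 0.037). Its limma adjusted p was 0.058 without Ctrl replicate 1, 0.053 without ONC replicate 3 and 0.057 after quantile normalization of the libraries.

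**Figure D2:**
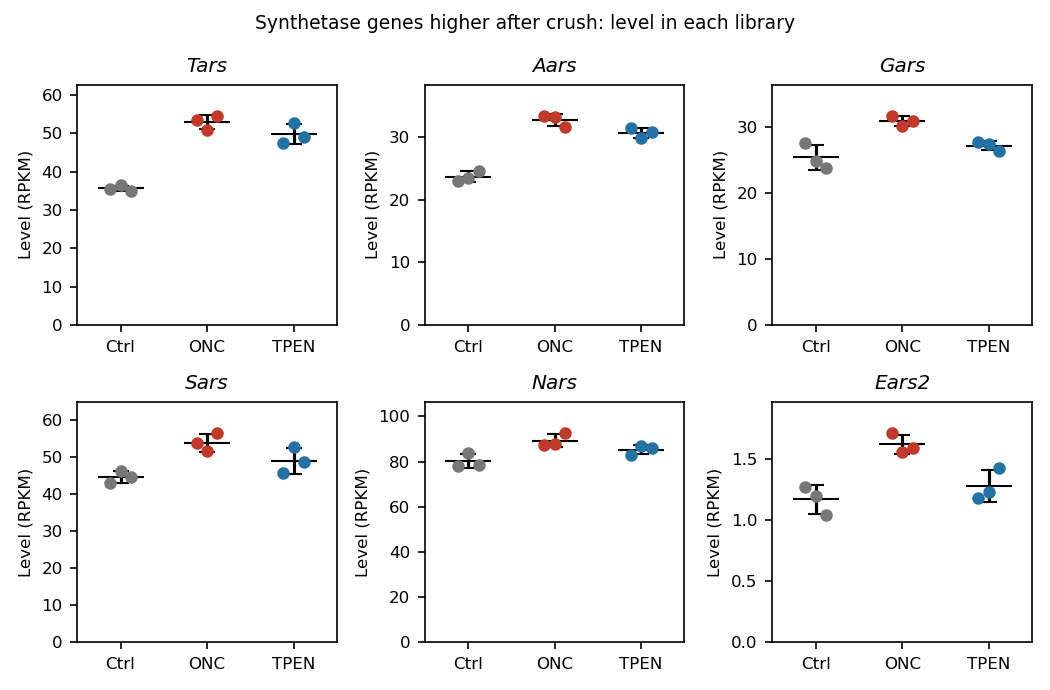
Level in RPKM (axes from 0) of the 6 genes called higher in ONC/Ctrl, with a point for each library and a bar with whiskers for the mean ± SD of the 3 libraries of Ctrl (gray), ONC (red) and TPEN (blue). For Tars and Aars the TPEN libraries stay above all Ctrl libraries, and for Gars, Sars, Nars and Ears2 they overlap Ctrl.

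Upstream sequence was searched for the C/EBP-ATF element, the letters TGATGNAA on either strand, to which ATF4 and its C/EBP partners are known to bind. Windows of 250 bases before to 50 after the start site were available from RefSeq (GRCm38.p6) for 27 of the 36 members, 13 cytosolic and 14 mitochondrial. Nars and Wars were among the members without a window, so they were not searched for any of the letters below. The element was in 5 of the 13 cytosolic windows (38.5%) and 0 of the 14 mitochondrial ones, against 4.51% of the 27025 genes with a window. It lay 15 bases before the start site in Tars, 30 before in Gars, 7 after in Iars and 3 after in Yars. Aars held it both 112 bases before and 9 after the start site. Of the 4 cytosolic genes with a window that rose in ONC/Ctrl, 3 held the element and Sars did not, and of the 9 other cytosolic genes with a window, 2 held it. The letters TTCNNNGAA, known as GAS, were on either strand in the windows of Aars, Kars and Nars2 (9.55% of all genes with a window), and GAAANNGAA, found in interferon response elements, was in that of Qars (9.76%). Such a match is a description of the letters, not of binding. The sequences of Tars and Gars are shown because they rose and hold the element upstream, and that of Sars because it rose without a match. Aars also rose and holds the element upstream, but its sequence is not reported here. Each reads 5′ to 3′ on the strand of the gene, and capitals mark the element, which appears here as its reverse complement. The Tars stretch is chr15:11399666-11399815 (minus strand), the Gars stretch chr6:55037851-55038000 (plus) and the Sars stretch chr3:108445260-108445409 (minus).
Tars: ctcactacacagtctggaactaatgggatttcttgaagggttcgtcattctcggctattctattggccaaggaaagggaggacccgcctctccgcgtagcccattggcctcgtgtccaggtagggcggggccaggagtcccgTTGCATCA
Gars: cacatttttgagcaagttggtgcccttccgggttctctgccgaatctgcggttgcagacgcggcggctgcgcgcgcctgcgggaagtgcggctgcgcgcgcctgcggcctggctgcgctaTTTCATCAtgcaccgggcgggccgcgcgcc
Sars: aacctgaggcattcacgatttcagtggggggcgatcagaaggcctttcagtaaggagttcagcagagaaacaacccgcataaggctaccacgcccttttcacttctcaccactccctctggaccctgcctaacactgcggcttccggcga

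The other 15 cytosolic genes did not pass the threshold in ONC/Ctrl. Their log2 fold changes ran from -0.14 (Farsb) to 0.17 (Vars), and 12 of the 15 were positive. Cars, Eprs, Iars, Rars, Vars and Yars had every ONC library above every Ctrl library without passing. Eprs had the narrowest 95% interval of the 20, 0.03 to 0.19 on the log2 scale around 0.11, and was called with voom on the whole reads (log2 fold change 0.09, limma adjusted p = 0.032). Cars had 8.70, 8.14 and 8.64 RPKM in Ctrl and 9.69, 9.32 and 9.65 in ONC, and it was called without TPEN replicate 1 (log2 fold change 0.17, limma adjusted p = 0.048). In all, 11 of the 36 members share exon bases with another listed gene, from 30 bases of Yars to 2034 bases of Iars2 (22.9% of its length, with Rab3gap2), and the sources used here do not say whether strand was used in counting. Mars shares 68 with Ddit3 on the opposite strand, an ATF4 target that was called higher in ONC/Ctrl (log2 fold change 0.45). Mars was at 12.5, 10.9 and 11.1 RPKM in Ctrl and 12.3, 11.5 and 12.03 in ONC, so its groups overlapped.

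Wars was not called in ONC/Ctrl, where interferon-induced genes were. Its level was 11.6, 10.8 and 12.5 RPKM in Ctrl, 13.8, 12.1 and 13.02 in ONC, and 11.7, 10.7 and 12.5 in TPEN, and all groups overlapped. The 9 interferon-induced genes that were tested were all higher in ONC/Ctrl, with a median log2 fold change of 2.53, and the 10 listed summed to 15.5 to 16.6 RPKM in Ctrl, 79.6 to 81.1 in ONC and 46.0 to 46.8 in TPEN. The 95% interval of the log2 fold change of Wars in ONC/Ctrl was -0.01 to 0.32.

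The calls are given here by known divisions of the family, with no test of a difference between the parts. The 5 genes called higher in ONC/Ctrl were also the 5 with the highest mean levels among the cytosolic genes. Nars was called at a log2 fold change of 0.16 (standard error 0.037), whereas Vars at 0.17 (standard error 0.11) was not. The part of level and spread in the divisions below was not tested. Synthetases have one of a pair of unrelated catalytic folds, class I or class II, and 5 of the 10 cytosolic genes of class II were called higher in ONC/Ctrl against 0 of the 9 of class I, although the medians were near each other (log2 fold change 0.13 and 0.14). Of the 12 cytosolic genes linked to ATF4 by general knowledge, 5 were called and 11 were positive, with a median of 0.16. Of the other 8, 0 were called and 6 were positive, with a median of 0.06. At an unadjusted p under 0.05, 9 cytosolic genes were higher and 0 lower in ONC/Ctrl, and voom called 6 higher and 0 lower. No share of all genes was worked out at the unadjusted threshold, so these counts have no background beside them. The 4 of these 9 that were not called were Cars, Eprs, Iars and Rars, so at that threshold the genes came from both classes, from inside and outside the complex and from both sides of the ATF4 division. Of the 8 genes of the multisynthetase complex (Dars, Eprs, Iars, Kars, Lars, Mars, Qars and Rars), 0 were called and 6 were positive, with a median of 0.08 and summed levels of 95.7 to 98.1 RPKM in Ctrl and 101 to 102 in ONC.

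Of the mitochondrial genes, only Ears2 was called in ONC/Ctrl. Thus 1 of the 16 was called higher and 0 were called lower, while 11.7% of all genes were called higher and 6.97% lower. The fold change was negative for 10 of the 16, beside 6304 of the 13566 genes tested. The median log2 fold change of the 16 was -0.04. At an unadjusted p under 0.05, where no share of all genes was worked out, 1 of the 16 was higher and 0 were lower. Voom called 1 higher (Ears2) and 1 lower (Mars2, log2 fold change -0.34, limma adjusted p = 0.016). ONC and Ctrl did not overlap for Ears2, which was higher, and Aars2, which was lower, where 20.7% and 15.8% of all genes separated in these directions. Summed over the 16 genes, the level was 54.2 to 56.9 RPKM in Ctrl, 51.3 to 56.4 in ONC and 52.5 to 54.4 in TPEN. For the 20 cytosolic genes the sums were 385 to 389 RPKM in Ctrl, 438 to 451 in ONC and 416 to 429 in TPEN, with no overlap between the groups.

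Ears2, on chromosome 7 (122037213 to 122067263), codes for the mitochondrial glutamate enzyme and was the mitochondrial gene that was called. It was at 1.27, 1.201 and 1.04 RPKM in Ctrl, 1.71, 1.56 and 1.59 in ONC, and 1.18, 1.23 and 1.43 in TPEN, with between 108 and 203 reads in a library. The ONC libraries were above all others, and Ctrl and TPEN overlapped. Its log2 fold change in ONC/Ctrl was 0.44 (adjusted p = 0.027 with limma, standard error 0.12). Leaving out any 1 of Ctrl replicate 2 or 3 or of the ONC replicates took the adjusted p to between 0.059 and 0.093, and quantile normalization to 0.072. Ears2 shares 89 of its exon bases with Ubfd1 on the opposite strand, whose log2 fold change was 0.05 (limma adjusted p = 0.788).

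Mars2, the mitochondrial methionine enzyme, had the lowest fold change of the 36 in ONC/Ctrl. Its level was 1.62, 1.95 and 1.64 RPKM in Ctrl, 1.67, 1.29 and 1.26 in ONC, and 1.36, 1.45 and 1.296 in TPEN. ONC replicate 1 lay within the Ctrl range and the other ONC libraries below it. The 95% interval of its log2 fold change in ONC/Ctrl was -0.59 to 0.01. Intervals of this width were common among the mitochondrial genes with few reads, and that of Pars2, with 72 to 129 reads in a library, ran from -0.64 to 0.41.

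**Figure D3:**
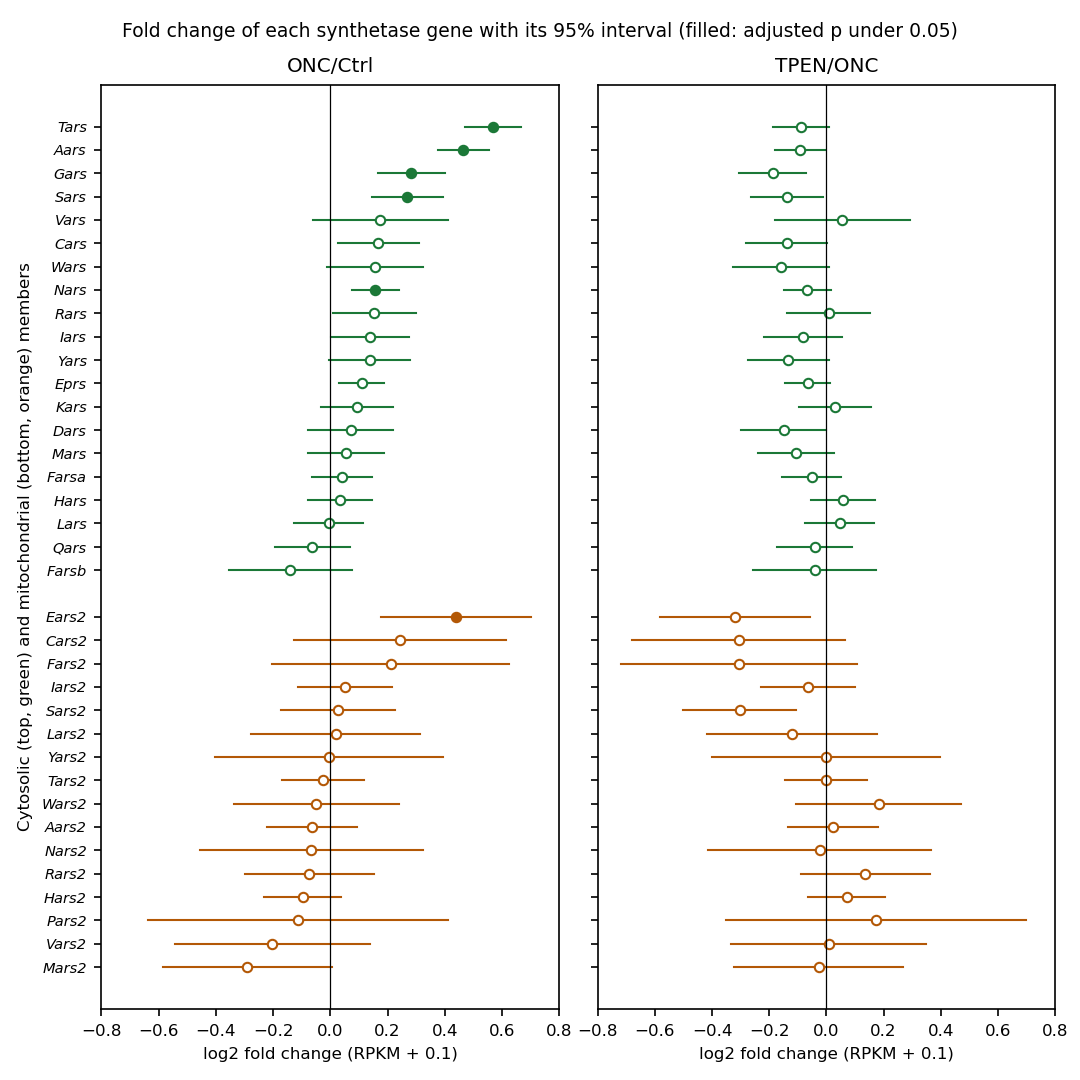
Log2 fold change on the RPKM + 0.1 scale of each member in ONC/Ctrl (left) and TPEN/ONC (right), with lines for the 95% interval, cytosolic genes in green above and mitochondrial genes in orange below, and filled points for an adjusted p under 0.05. On the left, 6 points are filled, all to the right of 0, and on the right no point is filled.

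No synthetase was called in TPEN/ONC, although most fold changes were negative. Over all genes, 3.24% were called higher and 4.14% lower in this comparison, and 2.03% passed a 1.5-fold change as well, against 0 of the 36 members for each. At an unadjusted p under 0.05, 4 cytosolic (Aars, Dars, Gars and Sars) and 2 mitochondrial genes (Ears2 and Sars2) were lower and 0 were higher. The share of all genes at that threshold was not worked out, so these counts have no background beside them. Voom called 1 gene lower (Gars). The log2 fold change was negative for 15 of the 20 cytosolic and 10 of the 16 mitochondrial genes, beside 7195 of the 13566 genes tested. Its median was -0.07 and -0.01, where that of all genes tested was -0.01. All TPEN libraries were below all ONC libraries for 9 of the 36 members (Aars, Dars, Eprs, Gars, Mars, Nars, Cars2, Ears2 and Sars2) and above them for 0, whereas 15.6% of all genes separated downward and 12.5% upward. TPEN/ONC and ONC/Ctrl share the ONC libraries, so the fold changes of a gene in both are not independent of each other.

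Gars had the smallest p of the cytosolic genes in TPEN/ONC, at -0.19 on the log2 scale (adjusted p = 0.061 with limma, standard error 0.052). It was called with only the 6 ONC and TPEN libraries in the fit (adjusted p = 0.025), with voom (0.018), without Ctrl replicate 1 (0.024) and without Ctrl replicate 3 (0.037). Leaving out Ctrl libraries cannot move the TPEN/ONC fold change, which stayed at -0.19, and only the estimate of the spread differed. With voom it was -0.17. Sars2, the mitochondrial serine enzyme, had the smallest p of the mitochondrial genes. It was at 3.03, 2.98 and 3.04 RPKM in Ctrl, 3.01, 3.11 and 3.10 in ONC, and 2.81, 2.34 and 2.30 in TPEN. The TPEN libraries were below all 6 others, which lay close together. Sars2 had a log2 fold change of -0.30 (adjusted p = 0.072 with limma, standard error 0.088), and without TPEN replicate 1 it was -0.39 (adjusted p = 0.028).

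In TPEN/Ctrl, Tars and Aars were still higher. Over all genes 8.36% were called higher, 5.01% lower and 3.91% at a fold change of at least 1.5 in either direction. Among the members 2 of the 20 cytosolic and 0 of the 16 mitochondrial genes were called higher, 0 were called lower and 0 reached 1.5-fold. Tars changed by 0.48 on the log2 scale (adjusted p = 7.9e-05 with limma, standard error 0.043) and Aars by 0.37 (adjusted p = 0.00021, standard error 0.039). At an unadjusted p under 0.05, where no share of all genes was worked out, 5 cytosolic genes were higher and 2 mitochondrial genes were lower. TPEN and Ctrl did not overlap for 4 members upward (Aars, Eprs, Rars and Tars) and 4 downward (Farsb, Qars, Mars2 and Sars2), against 18.1% and 13.3% of all genes. Sars2 had the smallest p of the mitochondrial genes (log2 fold change -0.28, adjusted p = 0.071 with limma, standard error 0.088). It was called without TPEN replicate 1 (-0.37, adjusted p = 0.021) and after quantile normalization (-0.32, adjusted p = 0.041), and voom called Mars2 (-0.35, adjusted p = 0.022).

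The share of the rise in ONC that was still present with TPEN is given as a description, since it reuses the libraries that picked these genes. It was 81.9% ± 15.3 for Tars and 77.5% ± 9.06 for Aars, taking each TPEN library against the Ctrl and ONC means (SD, n = 3). For Nars it was 56.1% ± 21.2 and for Sars 46.9% ± 38.7, where single libraries ran from 9.97% to 87.1%. For Gars it was 31.0% ± 12.7 and for Ears2 24.4% ± 29.0. The shares of Tars and Aars lay within each other's spread.

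**Figure D4:**
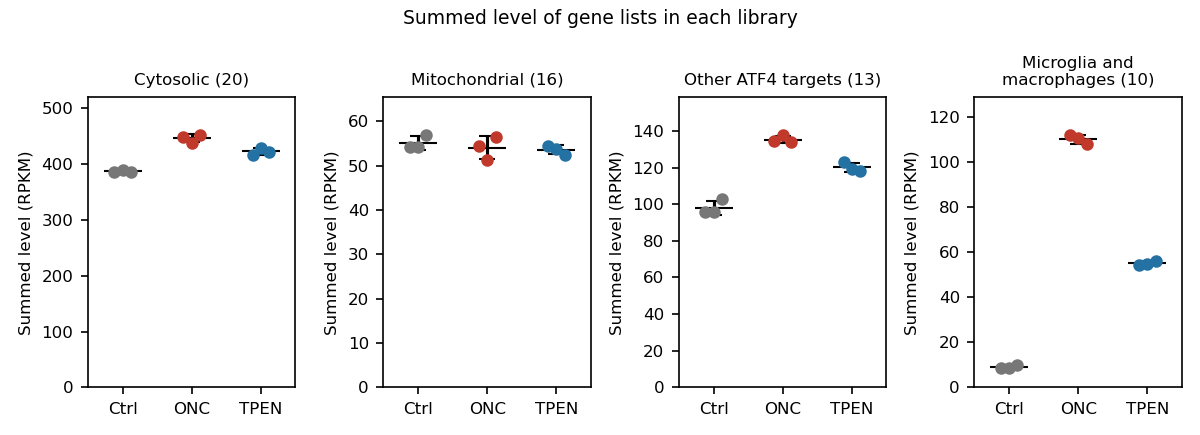
Summed RPKM (axes from 0) of the 20 cytosolic synthetases, the 16 mitochondrial ones, 13 other ATF4 targets and 10 microglia and macrophage markers, with a point for each library and a bar with whiskers for the mean ± SD of 3 libraries. The cytosolic sum is highest in ONC (438 to 451 RPKM) and the mitochondrial sums overlap (51.3 to 56.9 RPKM over all groups).

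Other genes known as ATF4 targets were also mostly higher in ONC. Of 12 tested, 8 were called higher and 0 lower in ONC/Ctrl, with a median log2 fold change of 0.51, and 4 were called lower in TPEN/ONC, beside 11.7% of all genes called higher in ONC/Ctrl and 4.14% called lower in TPEN/ONC. The paper names Asns, Cebpb and Slc7a11 as ATF4 targets that rose after crush and fell with TPEN in these same libraries. The counts are therefore not independent of that choice, and Asns and Cebpb are among the genes called lower in TPEN/ONC. Asns, which makes asparagine, was higher by 0.97 on the log2 scale in ONC/Ctrl (adjusted p = 0.0020 with limma, standard error 0.16) and at -0.71 in TPEN/ONC (adjusted p = 0.025, standard error 0.16). Trib3 was at 1.52 RPKM in Ctrl and 1.45 in ONC (log2 fold change -0.06, limma adjusted p = 0.864). The 13 listed genes summed to 95.5 to 103 RPKM in Ctrl, 134 to 138 in ONC and 118 to 123 in TPEN. Ddit3 (means of 50.8 RPKM in Ctrl, 69.7 in ONC and 65.3 in TPEN) and Slc3a2 (26.3, 28.5 and 25.7) weigh most in this sum, and neither was called in TPEN/ONC. The 12 ATF4-linked synthetases summed to 281 to 287, 332 to 345 and 312 to 323 RPKM, which gives the same order of groups with no overlap. The microglia and macrophage sum had that order as well, and its part in either was not tested.

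Genes that work with the synthetases were called at shares not far from those of all genes. Of 30 such genes (scaffolds of the complex, editing enzymes, the glutamyl-tRNA amidotransferase, elongation factors, GCN2 and others) 29 were tested, and 5 were called higher and 2 lower in ONC/Ctrl, beside 11.7% and 6.97% of all genes. Tested against a 1.2-fold change, 0 were called in either direction, and with only the 6 libraries compared 0 were called lower. Tsfm, the mitochondrial elongation factor that recycles Tufm, went from 4.23 to 6.22 RPKM (log2 fold change 0.54, adjusted p = 0.0051 with limma, standard error 0.10), whereas Tufm itself was at 22.4 and 22.8 RPKM. The cytosolic elongation factors Eef1b2 (log2 fold change 0.29), Eef1a2 (0.28) and Eef1a1 (0.21) and the scaffold gene Eef1e1 (0.27) were also called higher. Gatb (-0.36) and Gatc (-0.18), subunits of the mitochondrial amidotransferase that makes glutaminyl-tRNA, were called lower, each close to the threshold (limma adjusted p = 0.046 and 0.048), whereas the third subunit, Qrsl1, was at 2.57 RPKM in Ctrl and 3.11 in ONC (log2 fold change 0.27, limma adjusted p = 0.062). Leaving out 1 library left between 0 and 2 genes called lower, with 0 left without Ctrl replicate 1 or 2, ONC replicate 1 or 3, or TPEN replicate 2 or 3, and 3 to 5 called higher, with 3 left without ONC replicate 2. In TPEN/ONC, Eef1b2 was called lower (log2 fold change -0.16, limma adjusted p = 0.013), and it was not called without ONC replicate 1 or 2. Eef1a2 (0.28) and Eef1b2 (0.14) were called higher in TPEN/Ctrl, where leaving out 1 library left 1 to 4 called. The GCN2 gene Eif2ak4 was at 3.31 RPKM in Ctrl, 3.46 in ONC and 3.81 in TPEN and was not called.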

How the data were processed

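The authors mapped reads from stranded mRNA libraries with molecular identifiers to GRCm38/mm10 with STAR, after trimming with Trimmomatic 0.36 per the submitters' processing notes, and deposited RPKM per gene and library, with the merged exon length of each gene. The counting program, the annotation, the use of strand and the collapsing of identifiers are not given in the sources used here. The 9 deposited columns of the authors' own comparisons (p-values, FDR and log2 fold changes) were not used. RPKM multiplied by length was a whole multiple of 1 step per library for 100% of values (tolerance 0.01 reads), which gave whole reads and totals.

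Groups were taken from the sample titles. The 13566 of 15228 genes whose mean over all libraries reached 0.5 RPKM were tested as log2(RPKM + 0.1) with limma 3.58.1 (R 4.3.3), with a variance trend, all 9 libraries in 1 fit, two-sided, and p-values were adjusted over all of these genes by the Benjamini-Hochberg method. Fold changes are on this scale, which understates those of low genes. Scripts were tested on simulated data. All members are named with levels. A member called in a comparison, or that with the smallest p in a class with no call, is given with its test. Other members singled out, and members called only under an alternative, were chosen after their values were seen. The members and gene lists were chosen with earlier results of these data known. Lists are described by counts and medians, with no set test. Protein sequences were not analysed here. Alternatives were quantile normalization, no filter, a minimum mean of 1 RPKM, a pseudocount of 1 RPKM, the 6 libraries compared, a replicate block, voom on whole reads, a test against a 1.2-fold change (treat) and leaving out each library. Replicate pairs differed by more than sampling noise and were kept as separate samples. Promoter windows were matched by symbol. Some items of the lists and windows are not reported here.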

Additional observations from a re-analysis of the deposited data

How the results depend on the processing

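Of the 8 called changes of single members over 17 alternatives each (136 values), 121 stayed called, 15 lost the call and 0 reversed. Many of these values could not reverse, since the alternative left the fold change as it was. This held for the other filters, the 6 libraries compared, the replicate block and the 1.2-fold test. Leaving out a library of the group not compared did the same. Tars kept its call in all of them, in ONC/Ctrl and TPEN/Ctrl, and Aars in all for ONC/Ctrl. The test against a 1.2-fold change left 2 cytosolic genes (Tars and Aars) higher in ONC/Ctrl in place of 5, 0 mitochondrial genes in place of 1, and 1 cytosolic gene in TPEN/Ctrl in place of 2. Quantile normalization left 0 mitochondrial genes higher in ONC/Ctrl and gave 1 lower in TPEN/Ctrl. It also turned the split of all genes in ONC/Ctrl from 1590 higher and 946 lower to 1262 and 1428, with the median of all genes at -0.03 in place of 0.02. Voom gave 1 mitochondrial gene lower in ONC/Ctrl, 1 cytosolic gene lower in TPEN/ONC and 1 mitochondrial gene lower in TPEN/Ctrl, and the fit of the 6 libraries compared gave 1 cytosolic gene lower in TPEN/ONC, each in place of 0. Leaving out 1 library left 4 to 6 cytosolic and 0 to 1 mitochondrial genes higher in ONC/Ctrl, 0 to 1 cytosolic and 0 to 1 mitochondrial genes lower in TPEN/ONC, and 0 to 1 mitochondrial genes lower in TPEN/Ctrl. The cause of these differences was not tested.

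Replicate numbers did not pair the samples, since same-numbered libraries of different groups correlated between -0.062 and 0.027 in their deviations from the group means over 9 pairs. The replicate block left 0 mitochondrial genes higher in ONC/Ctrl in place of 1 (Ears2, limma adjusted p = 0.061), with all 5 cytosolic calls kept. Reads behind a value went down to 68 in a library for the mitochondrial genes and to 295 for the cytosolic ones, and the part of depth in the calls was not tested.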
